A study of Mus musculus with 12 samples.

Results

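Adipocytes, the cells of fat, make a set of mRNAs that heart muscle cells have little use for, and a piece of myocardium can carry some fat on its surface or around its vessels. The mRNAs of 9 such genes were followed here in every heart library as a sign of fat in the tissue piece: *Adipoq*, *Cfd*, *Retn*, *Plin1*, *Cidec*, *Cidea*, *Ucp1*, *Lep* and *Pparg*. They were looked up by name among the 33641 gene symbols of the table. All 9 were among the 13158 genes that reached 1 TPM in 3 or more of the 12 libraries, which were the genes tested. TPM is a length-adjusted share, scaled to a fixed total, of a library's RNA, so levels of different genes may be compared.

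The myocardium came from male C57BL/6 wild-type mice, about 10 weeks old by the treatment protocol and about 16 weeks old by the sample labels. Each had a sham operation or surgery giving a myocardial infarction (MI), and from 2 weeks after it received vehicle or 1 mg/kg prednisone, a synthetic glucocorticoid, as a weekly intraperitoneal injection at lights-on for 6 weeks. The 4 groups were sham with vehicle, sham with prednisone, MI with vehicle and MI with prednisone, with 3 mice in each. Hearts were collected 24 hours after the final dose, and the region of the heart and the trimming of fat are not given in the sources used here.

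White adipocytes store triglyceride in a single large droplet and secrete hormones, among them adiponectin, leptin and, in mice, resistin. Brown adipocytes hold many small droplets and burn fat for heat through the uncoupling protein UCP1. PPAR-gamma, a nuclear receptor that binds DNA together with a retinoid X receptor, drives adipocyte formation together with C/EBP transcription factors, and *Adipoq*, *Plin1*, *Cidec* and *Ucp1* are known targets of it in fat cells.

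The labelled tissue was borne out by its markers. The 9 cardiomyocyte markers summed to between 26377 and 43849 TPM, with the lowest sum in MI vehicle replicate 3. That library also had the most genes at 1 TPM or more (14307, against 11690 to 12772 in the other libraries). Mitochondrially encoded RNA took from 21.6% to 42% of a library, and TPM holds no record of sequencing depth. Lung epithelium markers (*Sftpc*, *Sftpb*, *Scgb1a1*, *Sftpa1* and *Ager*) summed to 6608 TPM in MI vehicle replicate 3, 9557 in MI prednisone replicate 2 and 1436 in MI prednisone replicate 3, against at most 377 in the other libraries. Most of this was *Scgb1a1*, the secretory protein of airway club cells, at 5514, 9321 and 1312 TPM. *Sftpc*, a surfactant protein of alveolar cells, had 766, 144 and 96.6 TPM in the same 3 libraries. These 3 libraries are all from infarcted hearts. Some limma changes of the 9 genes are also given without them below. The correlations, ratios, group overlaps and most counts of listed genes are given only with them.

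Sequence is shown for 3 members, chosen because their mRNAs moved in different ways. *Adipoq* varied with *Cfd*, *Retn*, *Plin1* and *Cidec*. The level of *Ucp1* relative to *Adipoq* differed between libraries, and the transcripts of *Pparg* differed from each other. Each line holds the 250 bases before an annotated transcription start, 5′ to 3′ on the gene's strand (RefSeq, GRCm38.p6). Capitals mark matches, on either strand, to the PPAR half-site AGGTCA or to the C/EBP sequence TTGCNNAA. The *Pparg* window is the one before the start of Pparg-201, the transcript of the adipocyte form of the receptor.
Adipoq (chr16:23146286-23146535, plus strand): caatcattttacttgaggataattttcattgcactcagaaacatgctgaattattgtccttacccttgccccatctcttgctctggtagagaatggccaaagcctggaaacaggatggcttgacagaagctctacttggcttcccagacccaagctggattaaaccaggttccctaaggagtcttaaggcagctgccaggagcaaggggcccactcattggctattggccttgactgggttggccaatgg
Ucp1 (chr8:83290098-83290347, plus strand): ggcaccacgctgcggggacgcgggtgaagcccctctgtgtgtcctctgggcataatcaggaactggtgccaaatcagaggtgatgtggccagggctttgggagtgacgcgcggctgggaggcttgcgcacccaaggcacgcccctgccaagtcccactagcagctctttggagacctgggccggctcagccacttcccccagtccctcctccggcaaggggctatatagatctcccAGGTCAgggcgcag
Pparg (chr6:115421816-115422065, plus strand): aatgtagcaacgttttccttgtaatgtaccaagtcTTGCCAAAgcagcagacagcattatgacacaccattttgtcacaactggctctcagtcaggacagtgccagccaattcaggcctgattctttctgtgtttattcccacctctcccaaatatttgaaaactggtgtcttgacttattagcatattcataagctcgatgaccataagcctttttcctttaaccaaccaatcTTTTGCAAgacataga
The *Pparg* window held a C/EBP match on each strand, beginning at positions -215 and -16 from the start. The *Ucp1* window held a PPAR half-site at position -14, and the *Adipoq* window held neither motif. Windows were matched for 8 of the 9 genes, 11 windows in all. A C/EBP match also lay in the windows of *Lep*, *Cidec* and *Plin1*, and a half-site in 2 further *Pparg* windows. Among 32851 windows of this length over the genome, 14% held AGGTCA and 9.56% held TTGCNNAA. A full PPAR direct repeat, which is a pair of half-sites with 1 base between them, was in 0.0335% of them and in none of the 11. A match is a string of letters and does not show that a factor binds there.

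Adiponectin, complement factor D and resistin, the hormones and secreted proteins of white fat, had a wider fold range among the 3 mice of each vehicle group than among the 4 group means. *Adipoq* (chromosome 16, 23146536 to 23158028, GRCm38) encodes adiponectin, an abundant hormone of fat cells. It was at 35.1, 49.2 and 2.09 TPM in the sham vehicle mice 1 to 3, 14.6, 13.5 and 16.6 in sham prednisone, 75.7, 1.68 and 177 in MI vehicle, and 28.1, 88.4 and 26.8 in MI prednisone. The 2 lowest libraries, sham vehicle 3 and MI vehicle 2, lay far below every other, and the highest and lowest of all 12 were both in the MI vehicle group, 106-fold apart. Group means were 84.8 ± 88 TPM in MI vehicle, 47.8 ± 35.2 in MI prednisone, 28.8 ± 24.2 in sham vehicle and 14.9 ± 1.58 in sham prednisone (SD, n = 3 each). Each neighbouring pair in that order overlapped in its values. In such bulk tissue, fewer fat cells and less RNA per fat cell cannot be told apart.

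*Cfd* (chromosome 10, 79890853 to 79892655) encodes adipsin, a serine protease of the complement system that fat secretes, and was the most abundant of the 9 genes in every library except sham vehicle 3 and MI vehicle 2. It had 163, 229 and 10.8 TPM with sham and vehicle, 106, 107 and 113 with sham and prednisone, 463, 12.2 and 1067 in MI vehicle, and 231, 633 and 187 in MI prednisone. The low and high libraries were those of *Adipoq*. *Retn* (chromosome 8, 3655770 to 3660110), the gene of resistin, had 10.6, 17.1 and 1.07 TPM with sham and vehicle, 6.98, 4.72 and 6.19 with sham and prednisone, 31.4, 0.344 and 58.5 in MI vehicle, and 13.3, 43.2 and 11 in MI prednisone. Its values again overlapped between the vehicle groups and parted MI prednisone from sham prednisone.

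*Lep* (chromosome 6, 29060220 to 29073877), which encodes leptin, the hormone that signals fat stores to the brain, was the least abundant of the 9 in every library except sham vehicle 3, sham prednisone 1 and MI vehicle 2, in which *Ucp1* was lower. It reached 1 TPM in 6 of 12 libraries. Its values were 1.98, 2.92 and 0.802 TPM with sham and vehicle, 0.985, 0.167 and 1.3 with sham and prednisone, 2.41, 0.715 and 6.88 in MI vehicle, and 0.558, 3.63 and 0.688 in MI prednisone. Every pair of groups overlapped.

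The lipid droplet proteins of the white fat cell followed the same libraries. *Plin1* (chromosome 7, 79720218 to 79732903, minus strand) encodes perilipin 1, which coats the droplet and controls access of lipases to it. It was at 20.4, 29.1 and 1.72 TPM with sham and vehicle, 6.28, 5.58 and 9.01 with sham and prednisone, 41.9, 0.848 and 108 in MI vehicle, and 11.4, 51.3 and 16.5 in MI prednisone. *Cidec* (chromosome 6, 113424634 to 113435760, minus strand), whose protein helps small droplets fuse into a large one, had 22.8, 34.9 and 2.46 TPM with sham and vehicle, 8.89, 7.9 and 10.3 with sham and prednisone, 54, 0.983 and 143 in MI vehicle, and 15.9, 49.5 and 19 in MI prednisone. Both were lowest in MI vehicle 2 and highest in MI vehicle 3, and in both the 3 MI prednisone mice were above the 3 sham prednisone mice.

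*Cidea* and *Ucp1*, which mark brown and beige fat, were less close to *Adipoq* than these. *Cidea* (chromosome 18, 67343604 to 67367785), a droplet protein related to CIDEC, was at 16.9 TPM or more in every library, including those lowest in *Adipoq*. It had 23, 26.6 and 18.6 TPM with sham and vehicle, 16.9, 17.2 and 21.8 with sham and prednisone, 29.7, 23.6 and 82.6 in MI vehicle, and 38.6, 108 and 44.3 in MI prednisone. MI vehicle 2, with 1.68 TPM of *Adipoq*, had 23.6 TPM of *Cidea*, within the range of the sham vehicle mice. The 3 highest values of *Cidea*, 108, 82.6 and 44.3 TPM, were in the 3 libraries with over 1000 TPM of lung epithelium markers. The ratio of *Cidea* to *Adipoq* ran from 0.392 to 14.1 over the 12 libraries, a 35.9-fold range, against a 1.77-fold range (4.65 to 8.24) for *Cfd* to *Adipoq*.

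*Ucp1* (chromosome 8, 83290352 to 83298452) had the widest range of the 9 genes, 476-fold. It was at 7.5, 7.97 and 0.714 TPM with sham and vehicle, 0.89, 0.458 and 1.88 with sham and prednisone, 11.8, 0.207 and 98.6 in MI vehicle, and 12.4, 88.7 and 27.9 in MI prednisone. Its 3 highest values, 98.6, 88.7 and 27.9 TPM, fell in the 3 libraries with over 1000 TPM of lung epithelium markers, and the part of lung RNA in that result was not tested. In the other libraries *Ucp1* was at most 12.4 TPM.

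**Figure D1:**
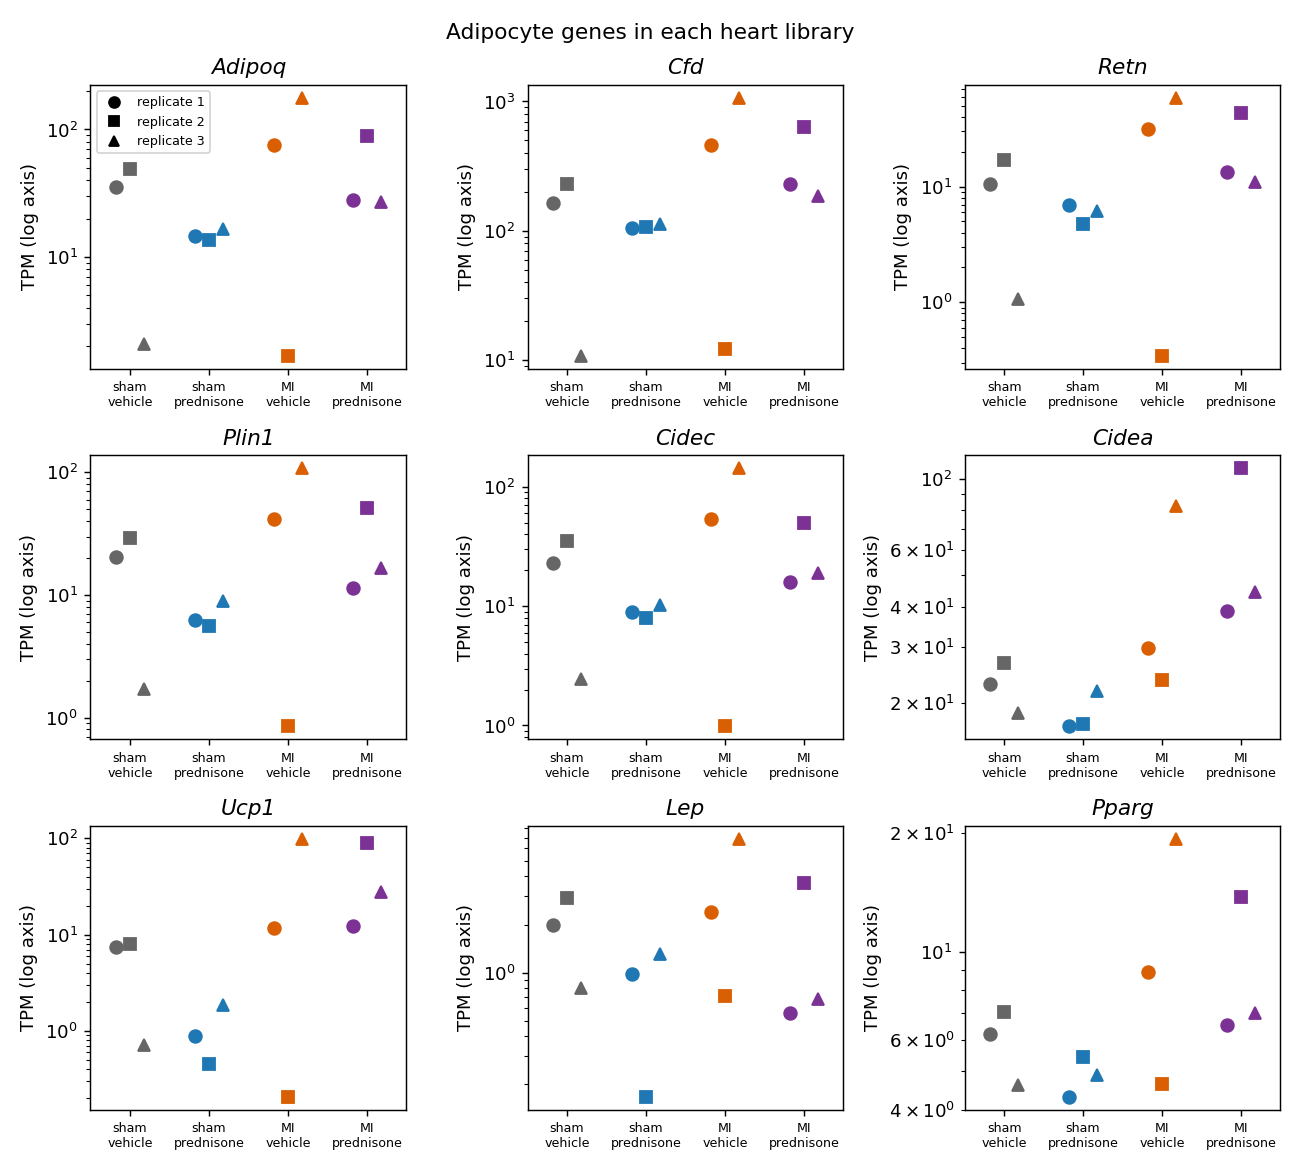
TPM of each of the 9 adipocyte genes in each of the 12 heart libraries, on log axes that differ between panels, with 1 point a mouse, colour for the group and shape for the replicate number. *Adipoq*, *Cfd*, *Retn*, *Plin1* and *Cidec* share a pattern with 2 low libraries (sham vehicle 3 and MI vehicle 2), whereas *Cidea* does not fall below 16.9 TPM.

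*Pparg* (chromosome 6, 115360951 to 115490399) was low throughout, from 4.31 to 19.3 TPM. It had 6.2, 7.06 and 4.61 TPM with sham and vehicle, 4.31, 5.42 and 4.88 with sham and prednisone, 8.88, 4.64 and 19.3 in MI vehicle, and 6.55, 13.8 and 7 in MI prednisone. The gene total hid a difference between its transcripts. Pparg-201 starts at its own promoter and encodes PPAR-gamma 2, the form typical of adipocytes, in 505 codons. Pparg-202 and Pparg-204 start upstream and encode the shorter PPAR-gamma 1, of 475 codons, which many cell types make. The 30 further codons of Pparg-201 are given, since they are what separates the protein of the fat-cell transcript from the other, with capitals on the start codon of Pparg-201 and, at the end of the line, on the start codon that Pparg-202 and Pparg-204 use (GENCODE M21, GRCm38, plus strand, chromosome 6, 115422111 to 115422192 joined to 115439840 to 115439850).
Pparg-201, start: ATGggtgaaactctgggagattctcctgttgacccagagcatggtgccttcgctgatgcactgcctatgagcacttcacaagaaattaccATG

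Pparg-201 was at 4.07, 3.21 and 0.429 TPM with sham and vehicle, 0.387, 0.774 and 1.16 with sham and prednisone, 5.02, 0 and 10.3 in MI vehicle, and 2.44, 5.9 and 1.98 in MI prednisone. It was listed at 0 in MI vehicle 2 and was highest in MI vehicle 3, the lowest and the highest library for *Adipoq*. Pparg-202 was at 1.16, 2.16 and 2.71 TPM with sham and vehicle, 2.4, 3.65 and 2.49 with sham and prednisone, 2.87, 4.64 and 3.49 in MI vehicle, and 2.9, 1.34 and 1.88 in MI prednisone. Its highest value was in MI vehicle 2, where Pparg-201 was listed at 0, and it stayed within 1.16 to 4.64 TPM. Pparg-204 ran from 0 in MI vehicle 2 to 6.31 TPM in MI prednisone 2.

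Across the 12 libraries Pearson's r with *Adipoq* on the log2(TPM + 1) scale was 0.94 for Pparg-201 (Spearman's rho 0.97), -0.39 for Pparg-202 (rho -0.36) and 0.67 for Pparg-204 (rho 0.55). Without the 2 libraries farthest from the *Adipoq* median, MI vehicle 2 and sham vehicle 3, r was 0.97 for Pparg-201, -0.05 for Pparg-202 and 0.65 for Pparg-204, so the negative value of Pparg-202 rests on those 2 libraries. These are descriptions over 12 libraries from 4 groups and carry no test. Pparg-201 made up from 0% to 65.5% of *Pparg* TPM in a library. The transcripts share most of their sequence, so the split between them is an estimate.

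**Figure D2:**
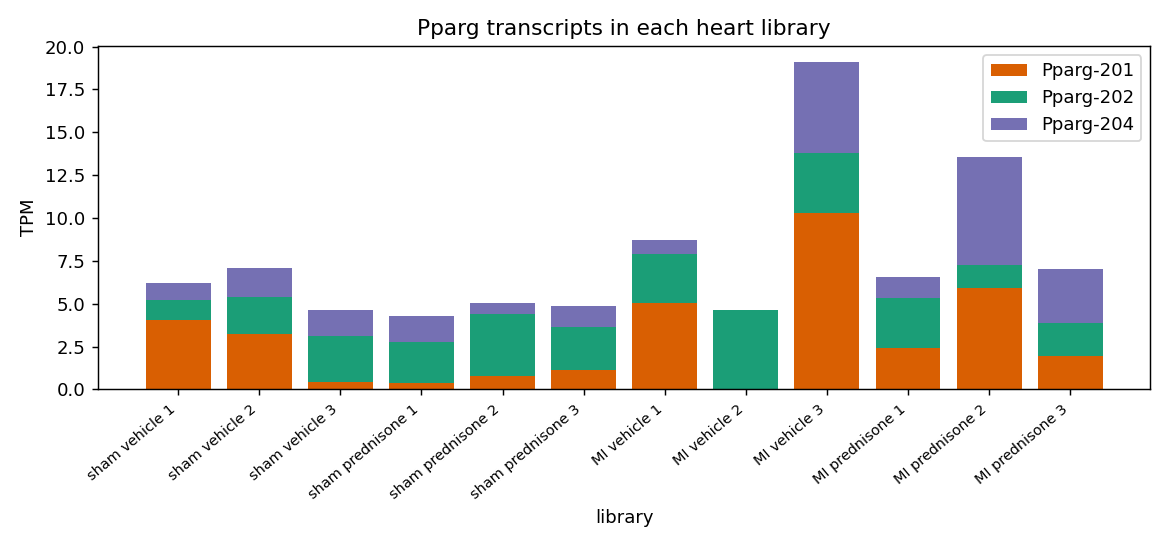
TPM of Pparg-201, Pparg-202 and Pparg-204 stacked in each of the 12 libraries, with the minor *Pparg* transcripts left out. Pparg-201 runs from 0 TPM in MI vehicle 2 to 10.3 in MI vehicle 3, while Pparg-202 lies between 1.16 and 4.64 TPM.

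The closeness of *Adipoq*, *Cfd*, *Retn*, *Plin1* and *Cidec* to each other was the clearest pattern of the set. Over 12 libraries *Cfd*, *Retn*, *Plin1* and *Cidec* each had r = 0.99 with *Adipoq*, with rho from 0.95 to 0.99, and r from 0.97 to 0.99 without the 2 farthest libraries. After each group's mean was taken away, r was from 0.99 to 1.00, so the genes moved together among mice of the same group. *Ucp1* had r = 0.85, *Pparg* 0.83, *Lep* 0.76 and *Cidea* 0.69 (0.86, 0.94, 0.90 and 0.79 without the 2 farthest libraries). After removal of the group means these were 0.93 for *Ucp1*, 0.86 for *Pparg*, 0.84 for *Lep* and 0.71 for *Cidea*. All these values share the libraries and their TPM scaling, and no test was made. Of 13149 genes outside the 9, 158 had r of at least 0.8 with *Adipoq*, and their median r was 0.27.

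**Figure D3:**
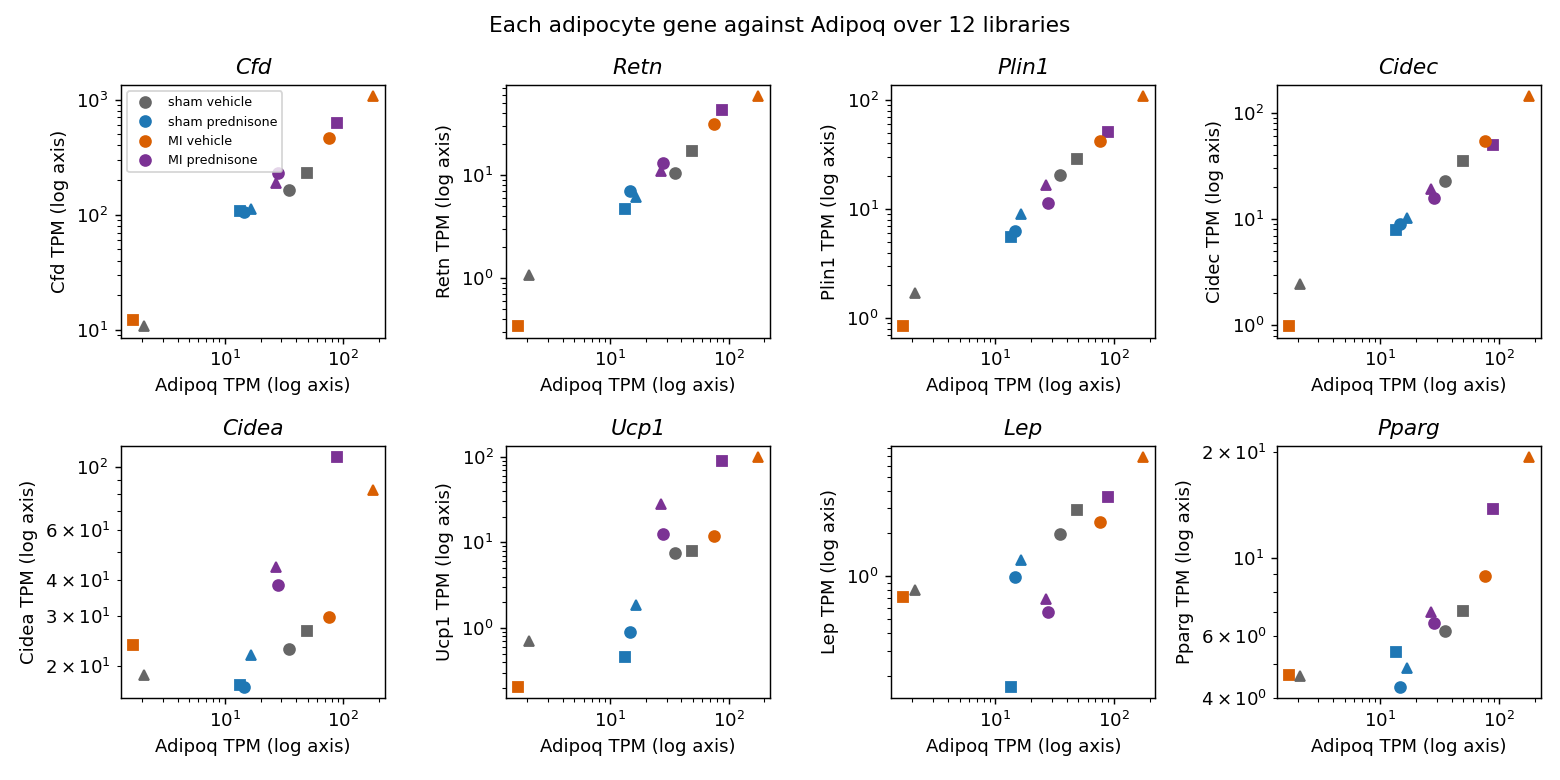
TPM of each of the other adipocyte genes (vertical) against *Adipoq* TPM (horizontal) in 12 libraries, on log axes, with colour for the group and shape for replicate 1 (circle), 2 (square) or 3 (triangle). *Cfd*, *Retn*, *Plin1* and *Cidec* lie close to a line (r = 0.99), while *Cidea* (r = 0.69) and *Ucp1* (r = 0.85) scatter.

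The 8 genes outside the set with the highest r were *Car3* (1.00), *Pck1* (0.99), *Cdo1* (0.98), *Scd1* (0.98), *Tmem45b* (0.97), *Cyp2e1* (0.97), *Orm1* (0.96) and *Ptger3* (0.96). *Car3* encodes a carbonic anhydrase abundant in fat and skeletal muscle, and was at 141, 196 and 10.8 TPM with sham and vehicle, 68.4, 55.2 and 72.6 with sham and prednisone, 329, 7.99 and 836 in MI vehicle, and 134, 414 and 145 in MI prednisone. *Pck1*, the cytosolic phosphoenolpyruvate carboxykinase that fat cells use to make glycerol, ran from 0.684 TPM in MI vehicle 2 to 123 in MI vehicle 3. *Scd1*, a desaturase of fatty acid synthesis, ran from 6.3 TPM in sham vehicle 3 to 594 in MI vehicle 3. None of the 8 was called in any of the comparisons below.

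Among 23 tested genes of a further list of white adipocyte genes, 18 had r of at least 0.8 with *Adipoq*, with a median of 0.89. The median was 0.03 for 14 lipid genes that heart muscle also uses, 0.07 for 10 other brown fat genes, 0.30 for 8 genes of fat-cell precursors and mural cells, and 0.13 for 13 receptors and partners of adiponectin, leptin and PPAR-gamma. Over the 12 libraries none of the 14, 8 and 13 reached 0.8, and of the 10 brown fat genes only *Otop1* did (0.83). *Otop1* was at 2.68 TPM in MI vehicle 3, 2.07 in MI prednisone 2, 1.06 in MI prednisone 3 and at most 0.655 elsewhere. It thus passed the filter on low genes only through the libraries rich in lung markers. Without the 2 farthest libraries the range of each other list overlapped that of the white fat genes. There r ran from 0.29 to 0.99 for the 23 white fat genes and from -0.75 to 0.84 for the 14. It ran from -0.57 to 0.88 for the 10, from 0.35 to 0.79 for the 8 and from -0.82 to 0.76 for the 13. *Fabp4*, the fatty acid binding protein of adipocytes that capillary endothelium also makes, had r = 0.77 and never fell below 543 TPM. Summed markers of lung epithelium had r = 0.83 with *Adipoq*, nerve and Schwann cell markers 0.76 and B and T lymphocyte markers 0.72. Capillary endothelial markers had 0.60, mesothelial markers 0.57, atrial markers 0.56 and cardiomyocyte markers -0.34. Without the 2 farthest libraries these were 0.86, 0.69, 0.81, 0.83, 0.79, 0.42 and -0.73 in the same order. The atrial myosin light chain *Myl7*, named after its values were seen, was at 64 TPM in MI vehicle 2 and 195 in sham vehicle 3. These are the 2 libraries lowest in *Adipoq*, and *Myl7* was at 409 to 1036 TPM in the others. Of the same list *Myl4* and *Sln* were also lowest in these 2 libraries, but *Nppa*, *Bmp10*, *Nr2f2* and *Tbx5* were not. *Nppa* was at 2840 TPM in MI vehicle 2, and *Nr2f2* at 7.47 there, against at most 4.97 in sham. *Bmp10* was lowest in sham vehicle 1 (3.42 TPM) and *Tbx5* in MI prednisone 2 (5.81 TPM). The 7 atrial markers summed to 868 TPM in sham vehicle 3, and to 1903 to 6204 in the others. MI vehicle 2, at 2981 TPM, was above every sham library in that sum. The part of atrial tissue in the adipocyte values was not tested.

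MI was compared with sham first in the vehicle mice, to see what infarction did without the drug. All 9 genes had a higher mean log2(TPM + 1) after MI, by 0.38 to 1.29 with a median of 0.80, against a median of 0.39 over all genes. None passed the test: 0 of 9 were called by limma at a Benjamini-Hochberg adjusted p under 0.05 (lowest 0.195, *Cidea*), and 0 had an unadjusted p under 0.05. In this comparison 15.1% of all genes were called higher and 0.904% lower. On median-ratio rescaling, which centres the median change of all genes near 0, the shares were 3.72% each way, and in a fit of only these groups 0.0152% and 0.00%. The groups overlapped for all 9, while 45.0% of all genes had groups that did not overlap. *Adipoq* changed by 0.90 (SE 1.38, limma adjusted p = 0.602), a change smaller than its error. Leaving out 1 mouse turned the sign for 7 of the 9 genes, and without MI vehicle 3 the *Adipoq* change was -0.31.

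Under prednisone the same comparison had 1 call. *Cidea* averaged 18.6 ± 2.73 TPM in sham and 63.6 ± 38.4 TPM in MI (SD, n = 3 for each mean). It rose by 1.57 on the log2 scale (SE 0.44, limma adjusted p = 0.0344) and was higher in each of the 3 MI mice than in any sham mouse. *Ucp1* had a larger change, from 1.08 ± 0.73 to 43 ± 40.3 TPM, that missed the threshold (log2 change 4.03, SE 1.30, limma adjusted p = 0.056). So 1 of 9 genes was called higher and 0 lower, where 2.73% of all genes were called higher and 14.1% lower. Median-ratio rescaling called 11.7% of all genes higher and 14.3% lower, and of the 9 it called *Cidea* and *Ucp1* higher. The groups parted, with MI higher, for 8 of 9 genes, all but *Lep*, and for 12.9% of all genes. The 9 log2 changes had a median of 1.47 against -0.06 over all genes, but those of *Adipoq*, *Cfd*, *Retn*, *Plin1* and *Cidec* were 1.37 to 1.52 with standard errors of 1.22 to 1.45. The fit shares 1 estimate of spread over the 4 groups, including the vehicle groups, in each of which 1 mouse had little RNA of these 5 genes.

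The *Cidea* call rested on few mice. It was lost without MI prednisone 2 (log2 change 1.12, limma adjusted p = 0.135), without sham vehicle 1 (0.0516), and without sham prednisone 1 (0.103), 2 (0.101) or 3 (0.0721), and with no filter on low genes (0.083). With only the 6 prednisone libraries fitted, 4 of 9 genes were called higher, *Cfd*, *Cidec*, *Cidea* and *Ucp1*, and of all genes 5.05% were called higher and 19.8% lower in that fit. Without the 3 libraries rich in lung markers, which leaves MI prednisone with 1 library assumed to vary like the rest, *Cidea* was still called (1.02, SE 0.22, limma adjusted p = 0.0132), while *Ucp1* was not (2.75, limma adjusted p = 0.157).

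**Figure D4:**
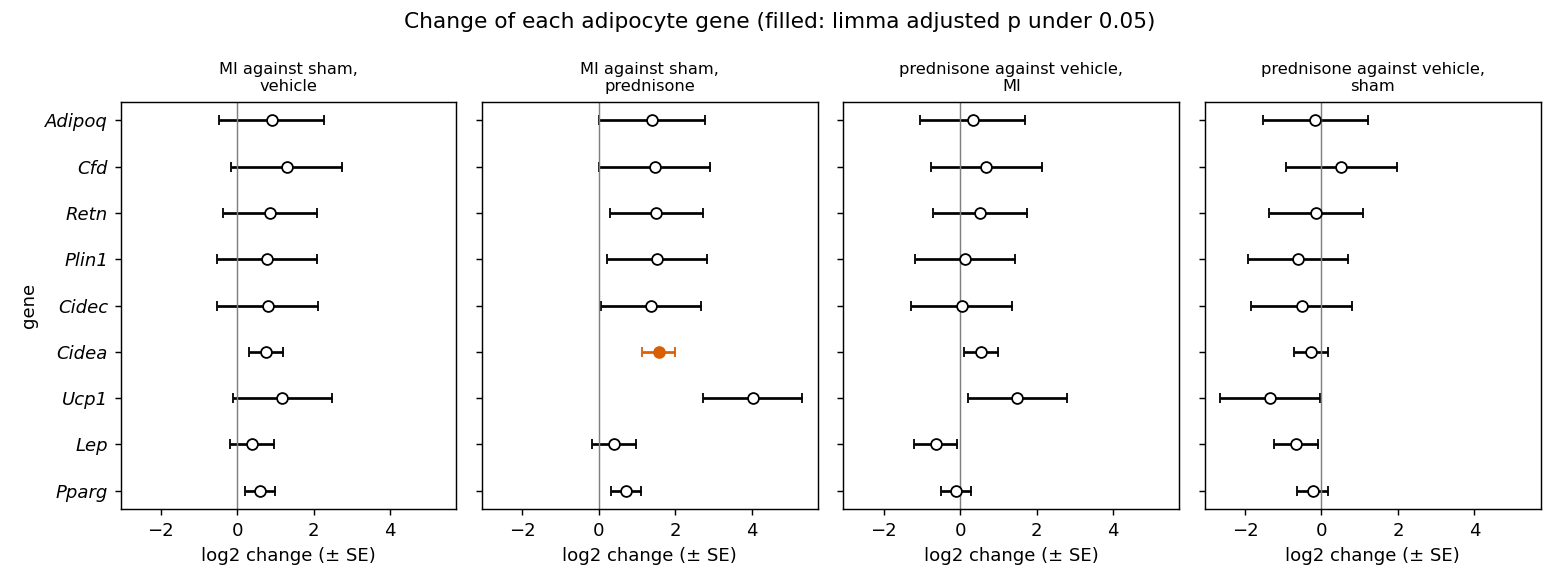
Log2 change (horizontal, on the log2(TPM + 1) scale) of each of the 9 genes in each of 4 comparisons, as points with standard errors from limma over 12 libraries. Filled points passed an adjusted p under 0.05, which only *Cidea* did, in MI against sham under prednisone (1.57).

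Prednisone was then compared with vehicle in infarcted hearts. The 9 changes ran from -0.64 (*Lep*) to 1.50 (*Ucp1*) with a median of 0.33, against -0.41 over all genes. None was called by limma (adjusted p 0.346 to 0.983) and 0 had an unadjusted p under 0.05, in a comparison in which 2.50% of all genes were called higher and 34.9% lower. On median-ratio rescaling the shares were 14.6% and 14.2%, and again none of the 9 was called. The groups overlapped for all 9 genes, and did not for 46.2% of all genes. Without MI vehicle 3, *Cidea* was called higher under prednisone (1.08, limma adjusted p = 0.0424), and no other removal of 1 mouse gave a call. *Adipoq* changed by 0.33 (SE 1.38) with all mice, by -1.49 to 1.54 when mice were left out in turn.

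In sham hearts prednisone against vehicle gave changes from -1.35 (*Ucp1*) to 0.52 (*Cfd*), with 8 of 9 below 0 and a median of -0.27 against 0.07 over all genes. None was called by limma (adjusted p = 1 for each) and 0 had an unadjusted p under 0.05, where 0.114% of all genes were called in either direction. The groups overlapped for all 9, and did not for 18.2% of all genes. The sham prednisone mice were closer to each other than the sham vehicle mice in 8 of the 9 genes by the ratio of highest to lowest value: *Adipoq* was within 13.5 to 16.6 TPM and *Cfd* within 106 to 113, against 2.09 to 49.2 and 10.8 to 229 in sham vehicle, where mouse 3 was low. *Lep* went the other way, 7.75-fold apart with prednisone and 3.64-fold with vehicle. The difference in spread was not tested.

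The difference between the prednisone effects in MI and in sham was above 0 for all 9 genes, from 0.02 (*Lep*) to 2.85 (*Ucp1*, SE 1.84, limma adjusted p = 0.272), with a median of 0.57 against -0.48 over all genes. None was called and 0 had an unadjusted p under 0.05, where limma called 21.3% of all genes in either direction, and 10.1% on median-ratio rescaling. Without MI vehicle 3, *Ucp1* was called (4.40, limma adjusted p = 0.0484). These comparisons share groups with each other, so their values are not independent.

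The ratio of *Ucp1* to *Adipoq* sets 1 mRNA of the set against another and is not a measure of brown against white fat. It was chosen after the values were seen. It was 0.214, 0.162 and 0.342 with sham and vehicle, 0.0608, 0.0338 and 0.113 with sham and prednisone, 0.155, 0.124 and 0.557 in MI vehicle, and 0.442, 1 and 1.04 in MI prednisone. Sham prednisone had the 3 lowest ratios and lay apart from both sham vehicle and MI prednisone. Its ratios rest on low *Ucp1* values, 0.89, 0.458 and 1.88 TPM. So do those of sham vehicle 3 (0.714 TPM) and MI vehicle 2 (0.207 TPM). On the log2 scale MI exceeded sham under prednisone by 3.65 (two-sided exact permutation p = 0.1), and prednisone differed from vehicle by -1.89 in sham (exact permutation p = 0.1). With 3 mice against 3, 0.1 is the smallest two-sided p that can be had, so neither can pass. MI against sham in vehicle mice differed by -0.05 (exact permutation p = 0.9), and prednisone against vehicle in MI by 1.81 (exact permutation p = 0.2). The 3 highest ratios, 1.04, 1 and 0.557, were in the 3 libraries with the most lung marker RNA, whose part in them was not tested.

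**Figure D5:**
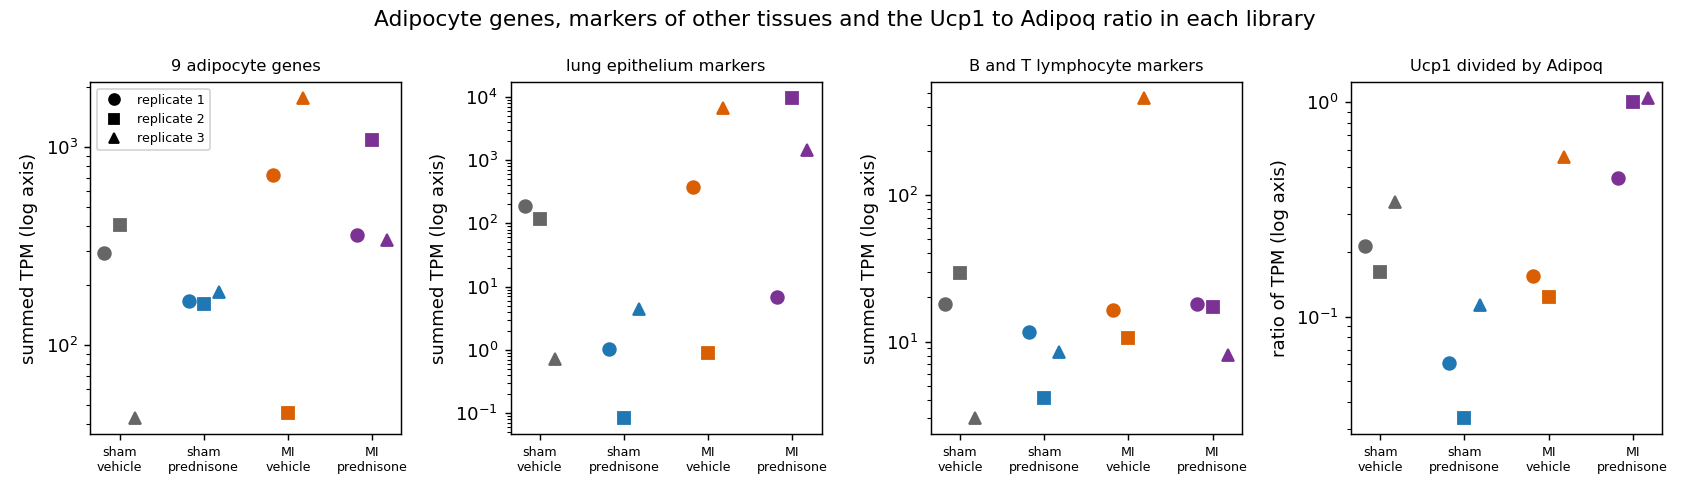
Summed TPM of the 9 adipocyte genes, of 5 lung epithelium markers and of 8 B and T lymphocyte markers, and the ratio of *Ucp1* to *Adipoq*, in each library on log axes, with colour for the group and shape for the replicate. The 3 libraries above 1000 TPM of lung markers (MI vehicle 3, MI prednisone 2 and MI prednisone 3) also have the 3 highest ratios, from 0.557 to 1.04.

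The 9 genes summed to 291, 404 and 42.9 TPM with sham and vehicle, 166, 162 and 185 with sham and prednisone, 719, 45.2 and 1760 in MI vehicle, and 358, 1080 and 340 in MI prednisone. Lung epithelium markers summed to 188, 119 and 0.716 TPM, 1.04, 0.0839 and 4.41, 377, 0.906 and 6608, and 6.94, 9557 and 1436 in the same order. The 2 libraries lowest in adipocyte RNA were under 1 TPM in lung markers, and the 2 highest in adipocyte RNA were the 2 highest in lung markers. Much of the sum in the 2 lowest was *Cidea*. Without it the sum was 24.3 TPM in sham vehicle 3 and 21.6 in MI vehicle 2. The sham prednisone libraries had adipocyte RNA with at most 4.41 TPM of lung markers. B and T lymphocyte markers summed to 457 TPM in MI vehicle 3 and to 3.02 to 29.5 elsewhere. The markers of thymus and lymph node stroma, *Foxn1*, *Psmb11*, *Ccl25* and *Ccl21a*, were also highest in MI vehicle 3. They were at 1.4, 5.84, 98.1 and 299 TPM there and at most 0.0658, 0.278, 4.94 and 120 elsewhere. None of the 5 lung and none of the 8 lymphocyte markers was called by limma in any comparison, and 1 lung marker had an unadjusted p under 0.05, in MI against sham under prednisone. The part of lung, thymus or other lymphoid tissue in the adipocyte values was not tested.

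The further white adipocyte genes were fitted in the same way. Of the 23 tested, 0 were called by limma in any comparison, while 6 had an unadjusted p under 0.05 in MI against sham under prednisone and 1 in prednisone against vehicle after MI. Their median change was 0.78 in MI against sham with vehicle and 1.03 with prednisone, 0.02 for prednisone in MI and -0.30 for prednisone in sham. In a fit of only the 6 prednisone libraries, 7 were called higher and 1 lower in MI, where that fit called 5.05% of all genes higher and 19.8% lower. On median-ratio rescaling 4 were called higher and 0 lower, where 11.7% of all genes were called higher and 14.3% lower. Without MI vehicle 3 it was 4 higher and 1 lower, against 7.27% and 22.9% of all genes. Without MI vehicle 2 it was 3 and 1, against 2.57% and 13.2%.

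Genes that fat shares with heart muscle were fitted as well. Of 14 lipid genes, 0 were called higher and 6 lower in MI against sham under prednisone, where 14.1% of all genes were called lower. For prednisone in MI 0 were higher and 5 lower, which is near the 34.9% of all genes called lower. The median change of the list there was -0.33, against -0.41 over all genes. *Gpam*, the acyltransferase that begins triglyceride synthesis, was at 47.4, 39.3 and 37.8 TPM in sham prednisone and 42, 45.3 and 39.8 in MI vehicle, but at 7.06, 5.77 and 14.5 in MI prednisone. It fell by 2.16 against sham prednisone (limma adjusted p = 0.00117) and by 2.20 against MI vehicle (limma adjusted p = 0.000557), and kept both calls in all 21 alternatives. *Cd36*, the fatty acid transporter of muscle, endothelium and fat, fell from 664 ± 6.38 TPM in sham prednisone to 279 ± 77.5 in MI prednisone (log2 change -1.28, limma adjusted p = 0.00124), again in all 21 alternatives. *Acsl1* and *Lpl* were also lower in MI prednisone than in sham prednisone (-1.04 and -0.65), calls that both lost when only the most abundant transcript was tested and that *Lpl* also lost on median-ratio rescaling. After median-ratio rescaling, 2 genes of this list were called higher and 3 lower in MI against sham under prednisone, against 11.7% and 14.3% of all genes. For prednisone in MI 2 were higher and 1, *Gpam*, lower, against 14.6% and 14.2% of all genes.

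Of 10 other brown fat genes, 0 were called higher and 4 lower in MI against sham under prednisone, where 14.1% of all genes were called lower. The 4 were *Cpt1b*, *Pank1*, *Ppargc1a* and *Prdm16*. Of these, *Cpt1b* was at 128 to 223 TPM over all 12 libraries, including those lowest in *Adipoq*. The count called higher was 2 on median-ratio rescaling, with a pseudocount of 0.1, without mitochondrially encoded genes and without MI prednisone 3. It was 3 without MI vehicle 3. It was 1 without MI vehicle 1 or MI prednisone 1, without the intensity trend and in a fit of only those groups. The share of all genes called higher in these fits ran from 0.768% without MI prednisone 1 to 11.7% on median-ratio rescaling. *Ppargc1a*, a coactivator of mitochondrial genes in brown fat and heart, fell by 1.66 (limma adjusted p = 0.00116) and *Prdm16*, a regulator of brown fat identity, by 0.84 (limma adjusted p = 0.00861). Prednisone in MI had 2 called higher, *Cox7a1* (0.79) and *Cox8b* (0.57), both subunits of cytochrome c oxidase that heart muscle also makes, and 4 lower, against 2.50% and 34.9% of all genes. On median-ratio rescaling 2 were higher and 1 lower, against 14.6% and 14.2% of all genes. In a fit of only those groups it was 1 and 0, against 0.236% and 5.91%. In MI against sham with vehicle 1 was called each way, *Dio2*, the deiodinase that activates thyroid hormone (1.64), and *Cox7a1* (-0.53), and neither was called in a fit of only those 6 libraries. The *Cox7a1* call in vehicle mice was also lost without sham vehicle 1, 2 or 3 or MI vehicle 3. *Elovl3*, a fatty acid elongase of brown fat, was called in none of the comparisons and is named after its values were seen. It was at 1.48, 3.46 and 1.16 TPM in the 3 libraries highest in *Ucp1* and at most 0.302 in the others. Those are the 3 libraries rich in lung markers, and it passed the filter on low genes only through them. *Otop1* likewise reached 1 TPM only in these 3 libraries. *Dio2* of the same list was instead highest, at 4.11 TPM, in MI vehicle 2, the library lowest in *Ucp1*.

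Genes of fat-cell precursors and mural cells, many of which fibroblasts also express, had a median r of 0.30 with *Adipoq* over the 12 libraries. Without the 2 farthest libraries their r ran from 0.35 (*Pdgfra*) to 0.79 (*Cd34*). Of 8, 6 were called higher and 0 lower in MI against sham with vehicle (15.1% of all genes were called higher), the largest being *Pi16* (1.27, limma adjusted p = 0.0115), a marker of adventitial fibroblasts, a call lost without sham vehicle 1 or 3. *Cd34*, a surface protein of precursors and endothelium, rose by 0.69 (limma adjusted p = 0.00922), a call lost without sham vehicle 3 or on median-ratio rescaling. None of the 8 was called in a fit of only those 6 libraries or without sham vehicle 3. The count was 1 without sham vehicle 1, and 2 on median-ratio rescaling and with the most abundant transcript. It was 3 without sham vehicle 2, sham prednisone 1 or MI vehicle 3. The share of all genes called higher in these fits ran from 0.0152% in the fit of only those 6 libraries to 8.59% without sham vehicle 2. It was 0.889% without sham vehicle 3 and 1.22% without sham vehicle 1. For prednisone in MI 4 of the 8 were lower and 0 higher, against 34.9% of all genes called lower. Of the 8, 2 were lower on median-ratio rescaling or in a fit of only those groups, where 14.2% and 5.91% of all genes were called lower. Among the 4 was *Pdgfra*, the growth factor receptor of fibroblasts and precursors, which went from 10.4, 10.2 and 10.9 TPM in MI vehicle to 5.96, 4.57 and 5.06 in MI prednisone (log2 change -0.90, limma adjusted p = 0.00151).

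The receptors and partners of adiponectin, leptin and PPAR-gamma were read against the same shares of all genes. Of 13, 0 were called higher and 4 lower in MI against sham under prednisone, against 2.73% and 14.1% of all genes. For prednisone in MI 1 was higher and 8 lower, against 2.50% and 34.9% of all genes. *Ppara*, the PPAR that governs fatty acid oxidation in heart, went from 13.9, 15.3 and 15 TPM in sham prednisone to 2.25, 2.85 and 5.38 in MI prednisone, with no overlap (log2 change -1.87, limma adjusted p = 0.00117). *Cdh13*, the T-cadherin that binds adiponectin, fell by 0.73 (limma adjusted p = 0.0154), a call lost on median-ratio rescaling and without sham prednisone 3, MI prednisone 1 or MI prednisone 2. *Adipor1*, a receptor of adiponectin, was within 52.6 to 73.4 TPM in all 12 libraries, and *Rxrg*, a retinoid X receptor, rose by 0.32 with prednisone in MI (limma adjusted p = 0.042), a call kept in 6 of 21 alternatives. After median-ratio rescaling the prednisone effect in MI was 1 called higher and 2 lower, where 14.6% of all genes were called higher and 14.2% lower.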

How the data were processed

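RNA of 12 mouse hearts was measured by stranded mRNA sequencing. The authors deposited TPM values, each library summing to 1000000, in 105129 transcript rows; Trimmomatic, HISAT2, kallisto and build mm10 are named, per the submitters' processing notes, with no versions. TPM keeps no depth, so precision rests on the spread between 3 mice a group. Rows of a symbol were added up, genes reaching 1 TPM in 3 or more libraries were kept, and log2(TPM + 1) fitted with limma 3.58.1 in R 4.3.3 (4 group means, intensity trend, all 12 libraries), which was tested on simulated data. A gene was called at a Benjamini-Hochberg adjusted p under 0.05 over 13158 genes. The log scale understates changes of low genes. The members and lists were chosen with earlier results of these data known. Named genes are the 9 members, the 8 genes most correlated with *Adipoq*, and at most 4 called genes a list and comparison by size of change; *Fabp4*, *Otop1*, *Adipor1*, *Elovl3*, *Rxrg*, *Cox8b* and the marker genes are named as examples chosen after their values were seen. Coordinates are from GENCODE M21, which holds 94.7% of the transcript identifiers. Alternatives were median-ratio rescaling, no filter, no trend, a pseudocount of 0.1, single transcripts, a replicate block, only the groups compared, removal of mitochondrially encoded genes, each mouse left out, and, added after the data were seen, removal of the 3 libraries above 1000 TPM of lung markers.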

Additional observations from a re-analysis of the deposited data

How the results depend on the processing

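With 3 mice a group and no read depth, differences below the spread between mice could not be detected. In MI against sham under prednisone, where 1 member was called, median-ratio rescaling gave 2, no filter 0, the most abundant transcript 2, the replicate block 0, only the groups compared 4, and removal of mitochondrially encoded genes 2. When mice were left out in turn the count ran from 0 to 2 there, from 0 to 1 for prednisone in MI, and from 0 to 1 for the interaction. No other alternative gave or lost a member's call in the other comparisons. Equal replicate numbers belong to different mice, and same-numbered libraries did not deviate together (mean r from -0.37 to 0.0028); with the block *Cidea* had a limma adjusted p of 0.0545. Of 63 calls of listed genes outside the members, 11 held in every alternative.

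Log2 changes that turned sign were, with the most abundant transcript, *Cidec* for prednisone in MI (-0.37) and the interaction (-0.29), *Pparg* for prednisone in MI (0.02), and *Ncor1* in MI against sham under prednisone (0.38). Median-ratio rescaling turned *Pparg* (0.30), *Lpl* (0.12) and *Pank1* (0.08) for prednisone in MI and *Lpl* in the interaction (0.01). Without the 3 libraries rich in lung markers, MI against sham with vehicle was -0.31 for *Adipoq*, -0.20 for *Retn*, -0.44 for *Plin1*, -0.46 for *Cidec*, -0.37 for *Ucp1* and -0.19 for *Lep*, MI against sham under prednisone was -0.16 for *Lep*, and prednisone in MI was 0.02 for *Pparg*. The causes were not tested.

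With mice left out in turn, the change in MI against sham with vehicle ran from -0.36 to 2.72 for *Adipoq*, -0.06 to 3.20 for *Cfd*, -0.20 to 2.53 for *Retn*, -0.44 to 2.50 for *Plin1*, -0.46 to 2.63 for *Cidec*, -0.37 to 2.81 for *Ucp1* and -0.19 to 0.91 for *Lep*. Under prednisone it ran from -0.11 to 0.68 for *Lep*. For prednisone in MI it ran from -1.49 to 1.54 for *Adipoq*, -1.22 to 1.95 for *Cfd*, -1.16 to 1.57 for *Retn*, -1.61 to 1.33 for *Plin1*, -1.79 to 1.30 for *Cidec*, -0.13 to 3.06 for *Ucp1* and -0.56 to 0.37 for *Pparg*. For prednisone in sham it ran from -1.42 to 0.59 for *Adipoq*, -0.83 to 1.31 for *Cfd*, -1.07 to 0.49 for *Retn*, -1.70 to 0.04 for *Plin1* and -1.55 to 0.14 for *Cidec*. For the interaction it ran from -1.33 to 1.75 for *Adipoq*, -1.74 to 1.52 for *Cfd*, -1.02 to 1.71 for *Retn*, -0.98 to 1.96 for *Plin1*, -1.26 to 1.83 for *Cidec*, -0.51 to 0.59 for *Lep* and -0.32 to 0.60 for *Pparg*.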
